A study of Mus musculus with 6 samples.

Results

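The cytosolic ribosomal protein genes were read on 6 Illumina BeadChip arrays of mouse fornical conjunctival epithelium, the epithelium that lines the fold between eyelid and eyeball. Members were all probes whose annotated symbol begins with Rpl or Rps and a digit, or is Rplp0, Rplp1, Rplp2 or Rpsa. Pseudogenes and the Rps6 kinases were left out, which removed 1 probe of Rps4l and 12 probes of 6 kinase genes. The rule gave 95 probes of 64 genes, out of 34885 probes of 19057 genes with a single symbol on the array. The large subunit accounted for 58 probes of 38 genes and the small subunit for 34 probes of 24 genes. The other 3 probes belong to Rps19bp1, a binding partner of Rps19, and Rps23rg1, a retroposed copy derived from Rps23. Their symbols fit the rule, but neither gene is a standard component of the ribosome. Rps27a, Rpl5 and Rpl11 had no probe with their symbol in the annotation used and were not analysed here.

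The KO group held 3 embryos with the genotype Fgfr2 fx/fx, positive for Le-Cre (Fgfr2-/-), and the WT group 3 wild type embryos, all on a mixed FVB and 129 background at embryonic day 14.5. Le-Cre is a transgene driven by a Pax6 element in the ocular surface ectoderm. Only KO embryos carried it, so an effect of Cre and the loss of Fgfr2 cannot be told apart. Each array read 1 embryo, labelled A, B or C in each group, and all 6 arrays lay on 1 slide. The epithelium was laser microdissected from frozen sections, and 15 ng of total RNA went through an amplification kit for very small inputs. The labels name the tissue as conjunctival epithelium, although their RNA extraction text speaks of prospective lens.

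A ribosome joins a small subunit, which binds the mRNA and pairs its codons with tRNAs, to a large subunit, which forms the peptide bonds and releases the growing chain through an exit tunnel. Each ribosomal protein is present in a single copy per ribosome, apart from the stalk proteins, and the genes are transcribed strongly in nearly all growing cells. Many of their mRNAs begin with a C followed by an uninterrupted run of pyrimidines, the 5′ terminal oligopyrimidine tract, through which mTOR signalling controls their translation. Their coding sequences have very many processed pseudogenes, so a probe can read transcripts of near-identical copies, and every probe value here carries that uncertainty.

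Start sites of 52 of the 62 genes that encode ribosomal proteins were found in the RefSeq promoter table (GRCm38.p6), and the windows below show the tract that ties this family to mTOR signalling. Each runs from 30 bases before to 20 bases after the annotated start, with the initial pyrimidine tract in capitals. The tract searched was C at the start followed by 4 or more bases that are each C or T, on the gene's strand.
Rps6, chr4:86857348-86857397 on the minus strand: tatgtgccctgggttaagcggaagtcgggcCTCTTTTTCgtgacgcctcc
Rps10, chr17:27635225-27635274 on the minus strand: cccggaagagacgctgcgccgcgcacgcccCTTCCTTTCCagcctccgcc
Rpl35, chr2:39005112-39005161 on the minus strand: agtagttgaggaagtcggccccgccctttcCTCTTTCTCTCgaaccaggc
Rplp2, chr7:141447621-141447670 on the plus strand: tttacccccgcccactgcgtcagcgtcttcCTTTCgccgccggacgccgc
Rpl38, chr11:114668550-114668599 on the plus strand: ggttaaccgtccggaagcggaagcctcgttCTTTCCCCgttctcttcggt
Rpl28, chr7:4792935-4792984 on the plus strand: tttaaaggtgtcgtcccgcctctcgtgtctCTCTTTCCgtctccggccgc
The same window is shown for 3 genes whose probes were among the furthest below WT and whose annotated start has no such tract.
Rps13, chr7:116334171-116334220 on the minus strand: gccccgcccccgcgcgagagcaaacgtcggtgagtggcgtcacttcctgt
Rpl9, chr5:65391412-65391461 on the minus strand: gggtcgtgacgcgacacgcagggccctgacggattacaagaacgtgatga
Rplp0, chr5:115559437-115559486 on the plus strand: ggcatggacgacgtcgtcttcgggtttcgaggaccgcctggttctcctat

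The tract stood at an annotated start in 9 of the 52 genes (17.3%) and in 9 of their 62 promoters (14.5%), against 2.51% of all 32851 promoters in the table. An annotated start that lies a few bases away from the used one hides the tract, so the absence of a match says only that these letters were not at that position. The motif CCGGAAG, the core bound by ETS-family factors, was found on either strand of the 300-base promoter window in 24 of the 62 promoters (38.7%), against 8.86% of all promoters. The E-box CACGTG, which reads the same on both strands, was found in 8 of the 62 (12.9%), against 7.15% of all. In 6 promoters both the tract and CCGGAAG were present, and in none did they overlap. A match is a description of the sequence and not a bound site.

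Intensities were background-corrected, quantile-scaled between arrays and given as log2 levels, and a probe was kept for testing if its detection p was below 0.05 on at least 3 of the 6 arrays. That kept 20853 probes in all and 85 of the 95 member probes, covering 62 of the 64 genes. Of these 85, 52 read the large subunit, 31 the small subunit and 1 each Rps19bp1 and Rps23rg1. The other 10 probes included the only ones of Rpl3l, a striated-muscle paralog of Rpl3, and both probes of Rpsa, whose protein sits at the mRNA exit. Rpsa levels were between 4.30 and 6.003 on KO arrays and between 4.28 and 4.92 on WT arrays, and no Rpsa probe was detected on more than 1 array of a group. The protein is a core component of every cytosolic small subunit.

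Most member probes were detected in both groups. The KO arrays A, B and C detected 78, 77 and 84 of the 95 member probes, against 87, 84 and 86 on the WT arrays, so the groups met at 84. Of all probes, the KO arrays detected 34.24%, 34.88% and 34.56%, against 50.55%, 48.48% and 49.51% in WT (p = 0.1 in a two-sided exact permutation test, which with 3 arrays a group can go no lower). Ribosomal protein transcripts are abundant, and 72 of the 95 probes were detected on all 6 arrays. The members took 1.719%, 1.803% and 1.728% of the summed raw signal on the KO arrays, against 2.28%, 2.299% and 2.284% on the WT arrays. The groups did not overlap in this share. The sums include background, and the median raw signal of all probes was 103.1, 106.4 and 101.1 in KO and 121.1, 116.6 and 125.7 in WT. What such array-wide brightness does to the share was not tested.

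**Figure D1:**
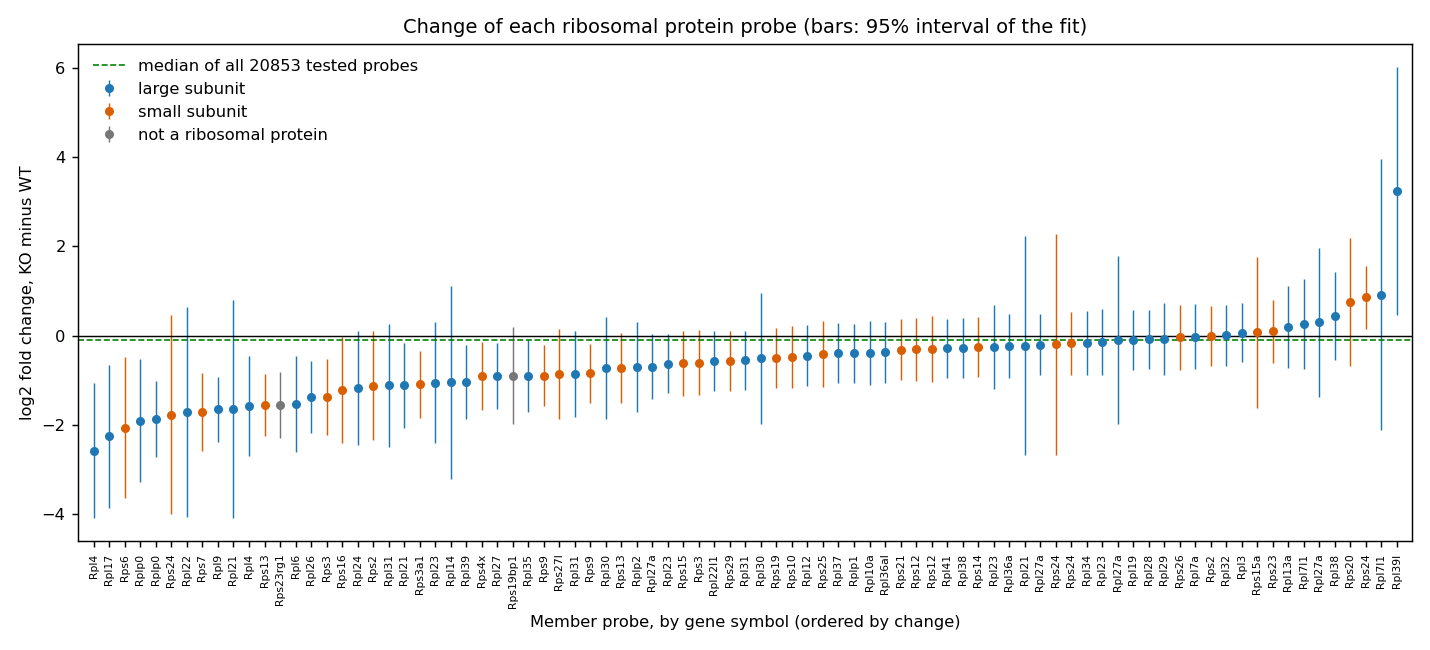
Log2 fold change (vertical axis, KO minus WT) of each of the 85 kept member probes, ordered along the horizontal axis, with the 95% interval of the limma fit. Most points lie below 0 and below the dashed median of all tested probes at -0.10, and the interval of Rpl39l at the right end runs from 0.45 to 6.03.

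No member probe passed the test at an adjusted p below 0.05 in limma with Benjamini-Hochberg adjustment over all 20853 probes, where 2.06% of all probes did, 1.43% lower and 0.623% higher in KO. At an unadjusted p below 0.05, 22 of the 85 member probes were lower in KO, against 11.9% of all probes, and 2 were higher, against 6.6% of all. At an adjusted p below 0.10, 5 member probes were lower and 0 higher, where 3.2% of all probes were lower and 1.47% higher. The 5 read Rpl9, Rps13, Rplp0, Rps23rg1 and Rps7. With 1 probe kept per named gene, Rpl9 and Rps13 of the 62 member genes passed, both lower, where 2.41% of the 13916 probes passed and 1.59% were lower. The count of member probes past 0.05 ran from 0 to 19 over the alternative settings. The 19 came with no scaling between arrays, where 15.3% of all probes were called. The count was 9 of the 85, all of them lower, when limma's variance prior followed the level and outlying variances were down-weighted. Under that setting 1.22% of all probes were called, 0.796% lower.

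By direction, 73 of the 85 member probes (85.9%) had a lower mean level in KO than in WT, against 54.7% of all probes. The log2 fold change was below -1 for 25 of them, where 18% of all probes were, and above 1 for 1, where 10.5% were. For 52 of the 85 (61.2%) every KO array lay below every WT array, against 17.4% of all probes, and for 2 every KO array lay above, against 10.1%. The median log2 fold change of the members was -0.55, beside -0.10 over all tested probes. With one way of scaling the median of the members no longer lay below that of all probes. With each array scaled to its median in place of its quantiles, the members' median was -0.34 and that of all probes -0.37, and 30 of the 85 members (35.3%) had KO below WT, against 24.4% of all probes. With cyclic loess the medians were -0.54 and 0.09, and with no scaling between arrays they were -1.04 and -0.84.

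**Figure D2:**
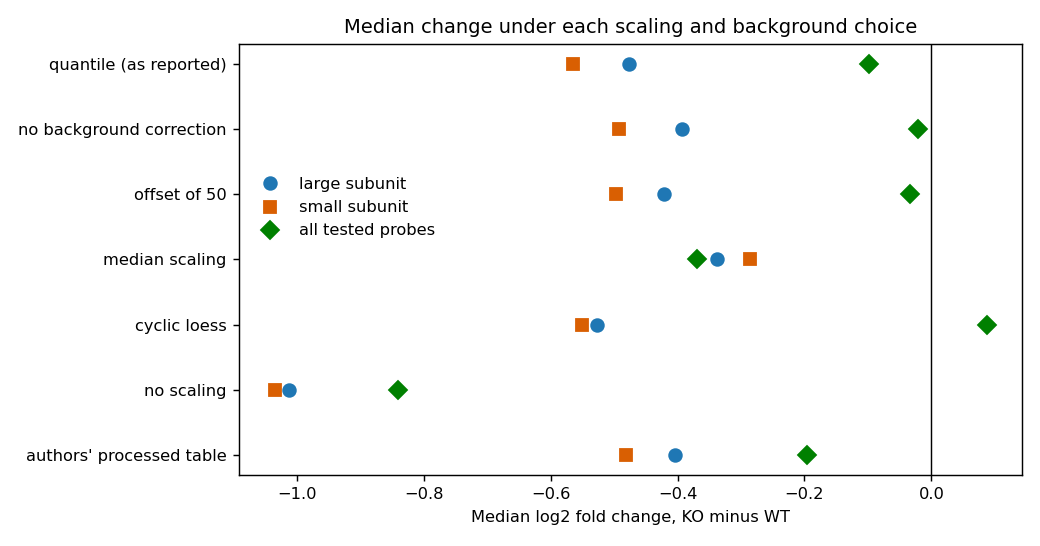
Median log2 fold change (horizontal axis, KO minus WT) of large subunit, small subunit and all tested probes under 7 choices of background correction and scaling (vertical axis). All medians of both subunits lie left of 0, and under median scaling alone the median of all probes, at -0.37, lies left of both subunits.

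The arrays themselves differed in ways that moved with genotype. Levels over all tested probes correlated at 0.676 to 0.680 between KO embryos and at 0.930 to 0.952 between WT embryos. Between a KO and a WT embryo the correlation was 0.728 to 0.748, so KO embryos resembled WT embryos more than they resembled each other. Marker lists of other cell types moved in both directions. For periocular mesenchyme genes, the mean level per array lay between 7.34 and 8.13 in KO and between 5.99 and 6.19 in WT. Of the 14 genes tested, 6 were called higher in KO and 1 lower, where 0.623% of all probes were called higher and 1.43% lower. In that list 23 of the 25 kept probes lay above 0. For erythroid genes the mean level per array lay between 8.22 and 8.84 in KO and between 6.58 and 6.83 in WT. Of the 7 erythroid genes tested, 5 were called higher, and all 16 kept probes lay above 0. In KO, 1 mesenchyme gene (Thy1) was undetected on all arrays, and in WT 3 mesenchyme genes (Ogn, Pdgfrb and Prrx1) and 2 erythroid genes (Hbb-bh1 and Slc4a1) were. The epithelial list averaged between 9.12 and 9.70 in KO and between 9.80 and 9.87 in WT, with 16 of its 18 genes detected on every array of each group. Of the 30 kept epithelial probes, 14 lay below 0 and 16 above, with a median log2 fold change of 0.03. In that list Barx2, a homeobox gene of the ocular surface, was called lower in KO by both of its tested probes (-3.87 and -2.08). No other probe of the list was called. Of the 14 lens genes on the array, Cryaa, Crybb1, Crygc and Cryge were undetected on all 6 arrays, and Cryab, which many tissues express, was called higher in KO among the 6 tested (1.97, adjusted p = 0.035). Markers of melanocytes and neural crest glia had all 6 kept probes below 0, with Sox10 called lower and KO at least 10.3-fold below WT. Of their 9 genes on the array, read by the brightest probe, Ednrb, Kit, Sox10 and Tyrp1 were undetected on all KO arrays. On all WT arrays Dct, Mlana, Tyr and Tyrp1 were undetected, and Dct, Mlana and Tyr were detected on at least 1 KO array. Leukocyte markers had 5 of 6 kept probes below 0, and 5 of their 9 genes were undetected on all KO arrays, against 1 on all WT arrays. None of the 7 endothelial genes was tested. The part that cell makeup, amplification and scaling play in the ribosomal protein values was not tested, and in bulk tissue fewer cells of a type and less RNA per cell cannot be told apart.

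The 4 kept Fgfr2 probes do not check the genotype here, because their position relative to the floxed exons is not known. Their log2 fold changes were -0.90, 0.86, 0.16 and 0.68, and none passed the test.

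Both subunits had medians below 0. Of the 52 large subunit probes, 44 (84.6%) were lower in KO, with a median log2 fold change of -0.48, and of the 31 small subunit probes 27 (87.1%) were lower, with a median of -0.56. KO lay wholly below WT for 29 large subunit probes (55.8%) and for 22 small subunit probes (71%), against 17.4% of all probes. Under median scaling the counts were 17 (32.7%) and 11 (35.5%), against 24.4% of all probes. Counting each gene once, by its brightest kept probe, 32 of 37 large subunit genes and 20 of 23 small subunit genes were lower, with medians of -0.44 and -0.50. On each array, the mean level of large subunit probes minus that of small subunit probes was -0.66, -0.66 and -0.42 in KO and -0.55, -0.62 and -0.67 in WT. These differences overlapped between the groups, and their means differed by 0.03, less than the SD of 0.14 over the KO arrays. Taken over medians in place of means, the difference was -0.44, -0.32 and 0.0056 in KO and -0.46, -0.45 and -0.65 in WT. By that measure every KO array lay above every WT array, by 0.26 on average, so the balance of the subunits depended on how it was summarised. Neither measure was tested.

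The 3 KO embryos shifted alike. Set against the WT mean of each probe, the median member deviated by -0.55, -0.56 and -0.47 on the KO arrays A, B and C, and by -0.014, 0 and 0.0046 on the WT arrays. The median of all tested probes deviated by -0.20, -0.17 and -0.19 on the KO arrays. On KO arrays A, B and C, 25, 26 and 22 of the 85 members lay more than 1 log2 unit below their WT mean, and no member did on any WT array. That count was not made over all tested probes, of which 18% had a log2 fold change below -1. Each WT array is part of the WT mean, so the WT deviations are no independent reference. No single KO embryo carried the shift, since A was the lowest of the 3 for 27 members, B for 31 and C for 27.

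The P stalk is the flexible arm of the large subunit that recruits and activates translation factors. None of its 5 kept probes passed the test, and all 5 had every KO array below every WT array, where 17.4% of all probes did, with a median log2 fold change of -0.71 beside -0.10. Rplp0, the stalk base, was read by a pair of probes that gave nearly the same change. Levels of the first (ILMN_1249815) were 7.14, 6.44 and 6.78 in KO and 8.996, 8.65 and 8.33 in WT. Its raw signals were 178.3, 144.6 and 147.0 in KO and 690.1, 559.3 and 509.8 in WT. The groups did not overlap, and the difference was -1.87 on the log2 scale, with an SE of 0.35 and an adjusted p of 0.061. The other (ILMN_2744356) stood at 8.55, 6.77 and 7.25 in KO and at 10.08, 9.01 and 9.20 in WT, a log2 fold change of -1.91 (adjusted p = 0.153). Rplp1 and Rplp2, the acidic proteins that dimerise on the stalk base, had smaller differences of -0.39 and -0.71. Rpl12, which lies beside the base, had levels of 11.63, 11.76 and 11.48 in KO and 12.07, 12.08 and 12.06 in WT, a difference of -0.44. The sign of Rplp1 turned to 0.03 under median scaling.

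Around the exit tunnel all 11 kept probes of 8 genes were below 0, with a median log2 fold change of -1.11. Rpl4, whose long loop lines the tunnel wall, had the most negative value among all members. Its levels (ILMN_2874507) were 5.50, 4.34 and 6.50 in KO and 8.69, 7.74 and 7.64 in WT. The groups did not overlap, but the SD over KO embryos was 1.08 and 1 KO array did not detect the probe. KO minus WT was -2.58 (SE 0.63) and missed the threshold at an adjusted p of 0.108, and the other Rpl4 probe gave -1.57. Rpl17, which shares the tunnel's narrowest stretch with Rpl4, stood at 4.64, 4.33 and 6.29 in KO and 8.09, 7.40 and 6.52 in WT. It was detected on 1 of 3 KO arrays and on all WT arrays, and its difference of -2.25 had an adjusted p of 0.150. Rpl22 was at 9.87, 8.02 and 5.86 in KO and at 9.73, 9.31 and 9.85 in WT, so KO A lay above the WT embryos and the difference of -1.71 rested on arrays B and C.

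Other proteins of this group lie at the tunnel mouth, where chaperones and the signal recognition particle dock. Rpl26 had levels of 8.98, 8.37 and 9.10 in KO and 10.06, 10.33 and 10.17 in WT, a difference of -1.37. Rpl35 was at 10.73, 11.24 and 10.42 in KO and 11.65, 11.77 and 11.64 in WT, a difference of -0.89. Rpl39, a very short protein within the tunnel wall, differed by -1.04, and Rpl19 by -0.09 with overlapping groups. Rpl31 was read by 3 probes with differences of -1.11, -0.85 and -0.55 and SDs over KO embryos of 1.06, 0.61 and 0.015, and the groups of the first overlapped. The last of these (ILMN_3152328) was the most even of all members over the KO embryos. Its levels were 11.48, 11.47 and 11.50 in KO and 12.00, 12.05 and 12.04 in WT (SD 0.028). The gap of -0.55 was many times the spread within either group, yet its adjusted p was 0.348, since limma moderates each probe's variance towards that of all probes and the moderated SE was 0.27.

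**Figure D3:**
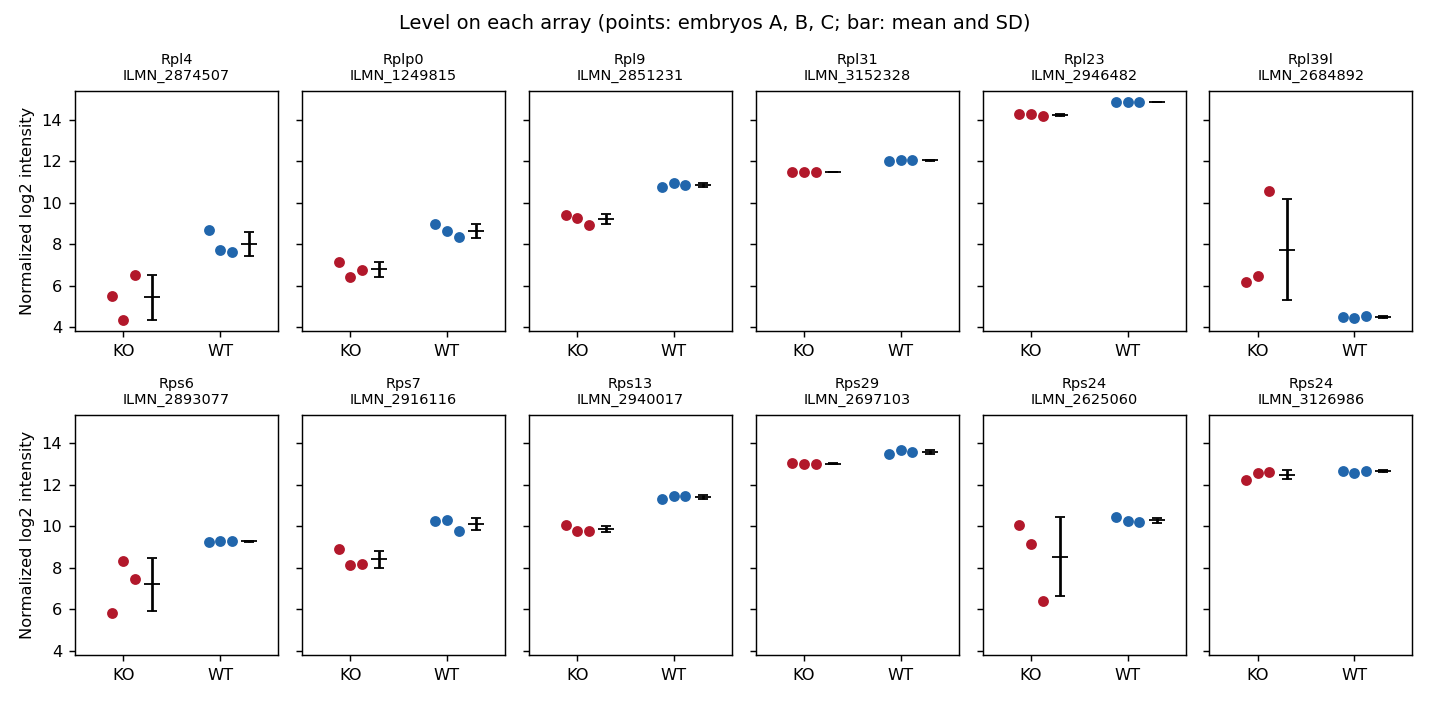
Normalized log2 intensity (vertical axis) of 12 member probes on each array, KO left and WT right in each panel, with one point per embryo and a bar for mean and SD. KO points lie wholly below WT in the panels of Rpl4, Rplp0, Rpl9, Rpl31, Rpl23, Rps6, Rps7, Rps13, Rps29 and the first Rps24 probe, overlap in the other Rps24 probe, and lie above in Rpl39l.

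Elsewhere in the large subunit Rpl9 came closest to the threshold of all members. Rpl9 lies near the base of the stalk, next to the site where translation factors bind. Its levels were 9.41, 9.24 and 8.93 in KO and 10.73, 10.93 and 10.87 in WT. Raw signals were 653.8, 626.3 and 454.5 in KO and 2020.0, 2245.2 and 2329.0 in WT. The difference of -1.65 (95% interval -2.37 to -0.93) had an adjusted p of 0.054. Rpl6 was detected on no KO array and on all WT arrays, with levels of 4.35, 4.78 and 4.31 in KO and 5.30, 6.75 and 5.98 in WT, and the bound puts KO at least 1.54-fold below WT, with an adjusted p of 0.147. That bound sets the WT mean against, on each KO array, the higher of the probe's own signal and the lowest signal of any detected probe. Rpl24, which reaches across to the small subunit, and Rpl27 differed by -1.18 and -0.90 without overlap. Several core large subunit probes did not move by more than their spread. Rpl3, which lies close to the peptidyl transferase centre, stood at 13.14, 13.27 and 13.08 in KO and 13.12, 13.07 and 13.08 in WT, a difference of 0.07. Rpl32 and Rpl7a differed by 0.01 and -0.02, with 95% intervals of -0.67 to 0.69 and -0.75 to 0.71.

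The other large subunit members fell into those with separated and those with overlapping groups. Rpl10a, Rpl37, Rpl36a and Rpl41 had every KO array below every WT array, with differences of -0.38, -0.39, -0.22 and -0.28. Rpl41, the shortest ribosomal protein, stood at 12.93, 12.92 and 13.01 in KO and at 13.21, 13.21 and 13.28 in WT. Rpl28, Rpl29 and Rpl34 had overlapping groups and differences of -0.08, -0.08 and -0.16. Rpl14 and both probes of Rpl30 also overlapped, at -1.05, -0.72 and -0.51. In each of these probes a single KO embryo lay above every WT embryo, KO A for Rpl14 and KO C for Rpl30, and the other KO embryos lay below. Rpl13a, which is also released from the ribosome to silence mRNAs in human monocytes, was at 9.92, 10.08 and 10.96 in KO and at 10.19, 9.95 and 10.23 in WT, a difference of 0.19. Rpl21 was read by 3 probes, of which 2 scattered widely over KO embryos. One of these (ILMN_1222250) stood at 4.59, 8.67 and 6.26 in KO and at 7.23, 6.12 and 6.84 in WT, a difference of -0.22 with an SD of 2.05 in KO. The remaining, dim Rpl21 probe (ILMN_2688863) was detected on no KO array and on every WT array, which bounds KO at 1.08-fold or more below WT.

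In the small subunit, Rps6 is the phosphorylation target of the S6 kinases downstream of mTOR, and it had the most negative value of that subunit. Levels were 5.82, 8.34 and 7.49 in KO and 9.26, 9.29 and 9.27 in WT. Raw signals were 114.9, 362.8 and 204.1 in KO and 797.7, 803.2 and 846.5 in WT. All KO embryos lay below WT, but their SD was 1.28 against 0.019 over the WT embryos. The difference was -2.06 (SE 0.65, adjusted p = 0.171). Its RefSeq start, CTCTTTTTC, is a tract of 9 pyrimidines.

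Rps13, which contacts the large subunit across a bridge, had levels of 10.06, 9.79 and 9.77 in KO and 11.32, 11.48 and 11.47 in WT. The difference was -1.55 (95% interval -2.24 to -0.86, adjusted p = 0.058). A dim second probe of Rps13 was detected on no KO array and on all WT arrays. Rps7, on the platform side, was at 8.89, 8.16 and 8.19 in KO and at 10.28, 10.29 and 9.78 in WT, a difference of -1.70 (adjusted p = 0.079). Rps23rg1 differed from the gene it derives from. Its levels were 10.44, 10.98 and 10.56 in KO and 12.28, 12.16 and 12.18 in WT (difference -1.54, adjusted p = 0.068). Rps23, which monitors codon pairing in the decoding centre, stood at 10.67, 10.65 and 11.05 in KO and 10.75, 10.68 and 10.65 in WT, a difference of 0.10. Whether these probes separate the copies from each other was not tested.

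At the mRNA entry, Rps3 and Rps2 line the channel that takes in the message. The 4 probes were all below 0, with a median of -0.86, but the probes of each gene gave unequal values. Rps3 had differences of -1.36 and -0.60, both without overlap of the groups. The brighter Rps2 probe stood at 12.65, 12.75 and 12.62 in KO and 12.64, 12.74 and 12.67 in WT, a difference of -0.01. The dimmer one stood at 8.57, 10.06 and 10.23 in KO and 10.67, 10.69 and 10.86 in WT, a difference of -1.12. At the mRNA exit and platform, all 5 kept probes were below 0, with a median of -0.31 and values between -1.70 for Rps7 and -0.04 for Rps26. In the head, 8 of 9 probes were below 0, with a median of -0.48, and the exception was Rps20 at 0.76 with overlapping groups. Rps29, Rps19 and Rps10 had KO wholly below WT, with differences of -0.56, -0.50 and -0.48. Rps7, Rps10, Rps19, Rps24 and Rps26, a part of the genes mutated in human Diamond-Blackfan anaemia, a red cell aplasia, had 8 kept probes with a median of -0.34, of which 7 were below 0.

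Further small subunit members differed in how far the groups were separated. Rps9, which lines the mRNA entry together with Rps2 and Rps3, was read by a pair of probes at -0.89 and -0.84. The brighter Rps9 probe stood at 11.03, 10.94 and 11.02 in KO and at 11.77, 11.89 and 11.86 in WT. Rps3a1, a large protein near the mRNA exit, was at 9.29, 9.80 and 9.36 in KO and at 10.47, 10.76 and 10.49 in WT, a difference of -1.09. Rps16, whose tail reaches towards the P-site tRNA, was at 8.77, 10.40 and 10.16 in KO and at 10.85, 11.08 and 11.05 in WT, a difference of -1.22 with an SD of 0.88 in KO. Rps4x, encoded on the X chromosome, was at 10.96, 10.27 and 10.66 in KO and at 11.55, 11.49 and 11.56 in WT, a difference of -0.90. Rps14, on the platform, had levels of 12.62, 12.61 and 12.55 in KO and 12.89, 12.78 and 12.87 in WT. Its difference of -0.25 turned to 0.12 under median scaling. Rps15, Rps25 and Rps21 differed by -0.62, -0.41 and -0.31 without overlap, and the probes of Rps12 by -0.30 without and -0.29 with overlap. Rps15a differed by 0.07 with overlap and an SD of 1.28 in KO.

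Paralogs of ribosomal proteins, which can replace their partner in some tissues, did not move together. The 6 kept probes had a median of -0.05. Rpl22l1 had levels of 9.69, 9.82 and 9.59 in KO and 10.20, 10.30 and 10.30 in WT, a difference of -0.57. Rps27l, a p53-inducible paralog of Rps27, was at 10.30, 9.44 and 10.74 in KO and at 10.92, 10.91 and 11.25 in WT, a difference of -0.87. Rpl36al differed by -0.37, without overlap. Rpl7l1 had differences of 0.92 and 0.26, with overlap in both probes.

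Rpl39l, a testis-enriched paralog of Rpl39, had the largest positive value of all members. Levels were 6.20, 6.48 and 10.55 in KO, where all 3 arrays detected it, and 4.51, 4.46 and 4.53 in WT, where none did. Raw signals were 125.0, 146.6 and 1278.0 in KO and 115.8, 109.9 and 121.1 in WT. In raw signal only KO C stood far above the WT embryos. The fit gave 3.24 (SE 1.15, adjusted p = 0.209). By the bound on the WT level, the mean of the KO levels was at least 8.55-fold higher. That mean, 7.74, lay above the levels of KO A and KO B. The bound therefore rested on KO C and is no lower limit for each KO embryo. Without KO C the difference was smaller, 1.84 on the log2 scale, and it passed the test in limma (adjusted p = 0.045), as the only member called. Over all alternatives its adjusted p ran from 0.045 to 0.473.

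Where a gene had several kept probes, they often gave unequal values. Of 15 such genes, 3 had probes of opposite sign and 4 had a gap above 1 log2 unit. Rps24, a gene with several spliced forms, had the widest gap, with differences of -1.77, -0.19, -0.16 and 0.86. The probe at -1.77 (ILMN_2625060) had levels of 10.05, 9.17 and 6.39 in KO and 10.43, 10.27 and 10.20 in WT, so KO C was far below the other embryos. The probe at 0.86 (ILMN_1214875), annotated to a cDNA clone, had levels of 7.08, 7.12 and 7.32 in KO and 6.09, 6.48 and 6.38 in WT, without overlap. Its raw signals ran the other way, at 173.8, 189.4 and 187.1 in KO and 192.4, 211.7 and 221.9 in WT. Without scaling between arrays its log2 fold change was -0.21. Rpl27a probes ran from -0.69 to 0.30 and Rpl38 probes, whose gene is needed for translation of Hox mRNAs in the mouse embryo, from -0.28 to 0.45.

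**Figure D4:**
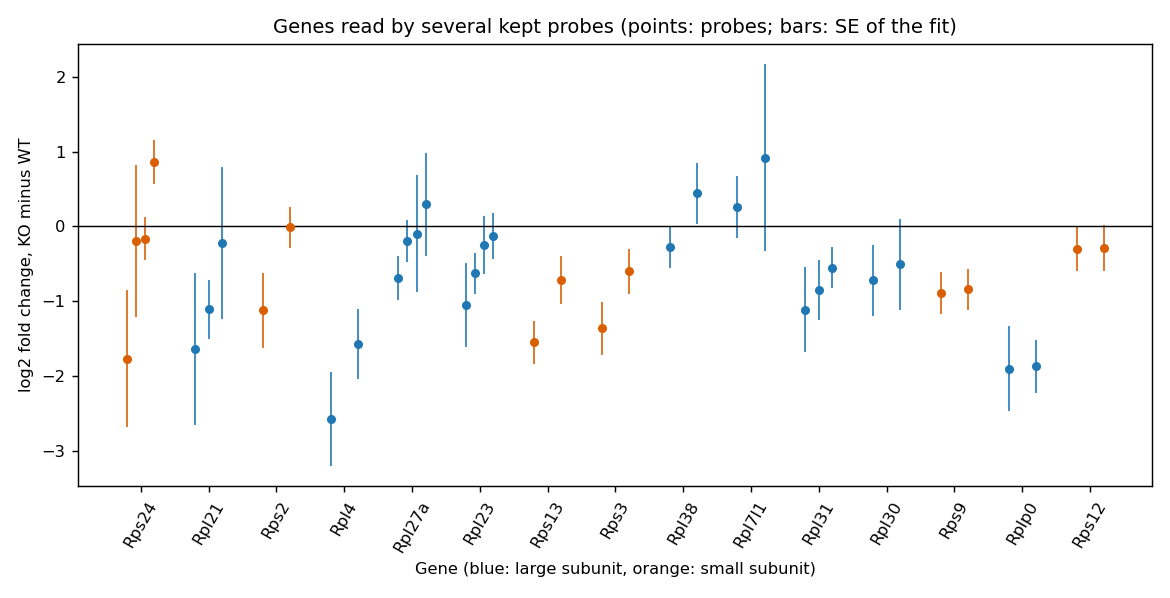
Log2 fold change (vertical axis, KO minus WT) of every kept probe of the 15 genes with several, genes ordered by gap along the horizontal axis, with the SE of the fit. The gap is 2.63 for Rps24 at the left and 0.016 for Rps12 at the right.

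Level and spread were linked among the members. The 23 probes with a mean level under 8 had a median SD over KO embryos of 1.06 and a median log2 fold change of -0.51. The 25 probes between 8 and 11 had the lowest median, -1.11, with 18 of them wholly below WT (72%), against 20% and a median of -0.23 for all probes of that band. The 37 probes at 11 or more had a median of -0.37 and an SD of 0.14 over KO embryos. KO lay below WT in 26 of them (70.3%), against 26.6% and a median of -0.02 for the 602 tested probes of that brightness. Under median scaling the bright members had a median of 0.07, beside 0.35 for all bright probes. By that scaling 7 of 37 lay below WT (18.9%), against 4.82% of all bright probes. Across the 85 probes, the WT level and the KO SD had a Pearson correlation of -0.58 and a Spearman correlation of -0.66. These points share the same 6 arrays and many share a gene, so the values describe this set only.

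KO embryos differed from one another more than WT embryos did. The median SD of a member was 0.29 over KO embryos and 0.10 over WT embryos, and the KO SD was the larger in 72 of 85 members. Over all tested probes the medians were 0.83 and 0.31, and the KO SD was the larger in 17159 of 20853, a similar share. The brightest member, Rpl23 (ILMN_2946482), illustrates what scaling does at the top of the range. It was the second brightest probe on every WT array, so quantile scaling gave it 14.86 on all 3, against 14.27, 14.27 and 14.16 in KO. The next brightest members were Rpl27a (ILMN_2641304), at 13.41, 13.41 and 13.21 in KO and 13.60, 13.54 and 13.48 in WT, and Rps29, at 13.06, 12.996 and 13.01 in KO and 13.48, 13.68 and 13.60 in WT. The difference of -0.63 for Rpl23 turned to 0.68 under median scaling and to 0.19 in the authors' processed table, and that of -0.20 for Rpl27a turned to 0.33 under median scaling.

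**Figure D5:**
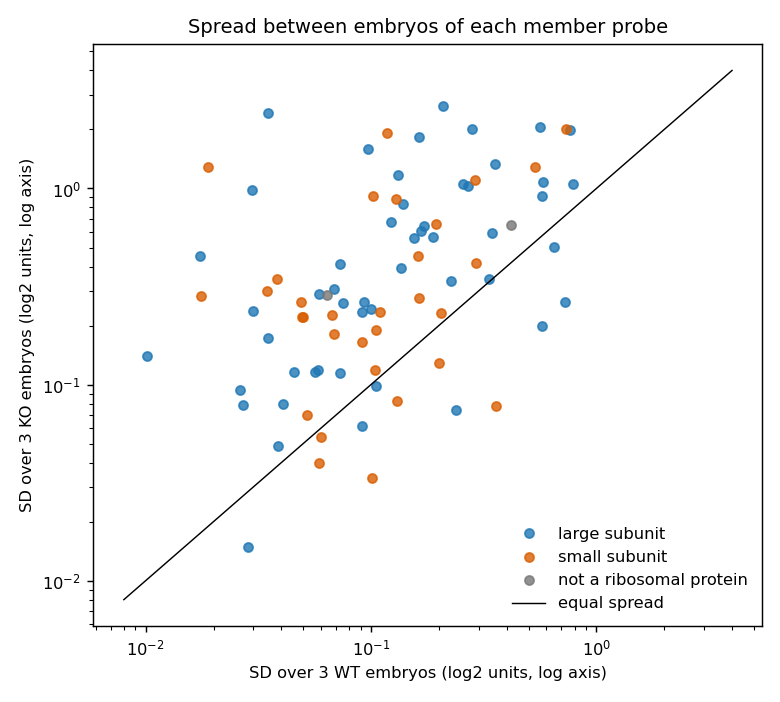
SD over the 3 KO embryos (vertical, log axis) against the SD over the 3 WT embryos (horizontal, log axis) of the kept member probes in log2 units. Most points lie above the line of equal spread, 72 of 85 in all, beside 17159 of 20853 over all tested probes. The brightest Rpl23 probe is not drawn because its WT SD was 0.

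A pyrimidine tract at the RefSeq start did not go with a lower median among the members. The 10 kept probes of the 9 genes with the tract had a median log2 fold change of -0.39, and the 60 probes of the 41 genes without it had -0.59. Values ran from -2.06 for Rps6 to 0.45 for Rpl38 among the genes with the tract. With CCGGAAG in the promoter the median was -0.48 over 29 probes, and without it -0.60 over 41.

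Related gene lists gave the members' setting. The mitochondrial ribosomal proteins, a separate family that serves the organelle, had a median log2 fold change of -0.43 over 111 probes, beside -0.55 for the members. Without background correction the medians were -0.14 and -0.43, and with cyclic loess they were -0.11 and -0.54. KO lay wholly below WT in 16.2% of the mitochondrial probes, near the 17.4% of all probes. These probes were dimmer than the members, with a median WT level of 7.52 against 10.94. Their median SD over KO embryos was larger, 0.92 against 0.29. One passed the test (2.06% of all probes did), for Mrps22 at -2.01 (adjusted p = 0.037), while its other probe was at 0.31 with overlapping groups. Other mRNAs known to carry the pyrimidine tract, such as those of elongation factors, had 0 of 42 probes past the test and a median of -0.31, with 6 lower and 0 higher at an unadjusted p below 0.05, where 11.9% of all probes were lower. The list for mTOR and the control of such mRNAs had 0 of 39 past the test and a median of 0.18, with 3 lower and 3 higher unadjusted. Of 93 probes for ribosome biogenesis factors, 2 were called lower, a share near the 1.43% of all probes, and the median was -0.25. They read Nop16 and Nifk, nucleolar proteins of large subunit assembly, with KO at least 3.53-fold and 4.17-fold below WT (adjusted p = 0.033 and 0.047). The Rps6 kinases had 1 of 9 probes called, for Rps6ka5, with KO at least 3.09-fold below WT (adjusted p = 0.038), while its other 3 kept probes differed by -0.45, -0.30 and -0.04. Transcription factors tied to these genes had 0 of 22 past the test, with 3 lower and 2 higher unadjusted. In the p53 list, 1 of 21 probes was called, for Mdm4, an inhibitor of p53, with KO at least 14.2-fold below WT (adjusted p = 0.0084), while 3 of its other 4 probes overlapped between the groups.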

How the data were processed

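The deposited scanner table gives the average bead intensity per probe on a linear scale with a detection p-value against negative controls, its standard error and a bead number, per the file headers. It was neither background-subtracted nor scaled between arrays, as its values show. GenomeStudio was used, per the submitters' processing notes, and its version is not given in the sources used here, nor is the scaling method. A second deposited table of the authors' processed intensity, from the same arrays, served as an alternative. It ranks the probes as the scanner table does on every array. Its values are on a linear scale, not log2, with medians between 9.03 and 9.05 and 25.6% of values below 0. For use as an alternative, 16 was added to each value, the values still too low for a logarithm were floored, and log2 was taken.

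Intensities were corrected with limma's neqc (limma 3.58.1, R 4.3.3: normexp from detection p-values, offset 16, quantile scaling, log2). Probes detected (p below 0.05) on 3 or more of the 6 arrays were tested with lmFit and eBayes, KO minus WT, with Benjamini-Hochberg adjustment at 0.05 over all 20853. Symbols came from GEO's platform annotation, updated through RefSeq gene IDs: 34885 probes had 1 symbol, 18 several and 10378 none. The script was tested on simulated data. Each group holds 3 arrays, which limits the precision, and all columns of per-sample values belong to the 6 samples.

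Members, lists and tests were chosen with earlier results of these data known. Named members were the 8 with the most negative and the 8 with the most positive changes, genes with probes over 1.5 apart, stalk, Rps6 and paralog members, the 3 brightest and dimmest, and the 3 with the lowest and highest KO spread. Other members were named for their roles after their values were seen. Levels of different probes were not compared as amounts. Alternatives covered background, offset, scaling, filter, variance prior, array weights, a block for the replicate letter and omission of single embryos.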

Additional observations from a re-analysis of the deposited data

How the results depend on the processing

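The count of member probes past the test was 0 as reported, where 2.06% of all probes passed. It was 6 without background correction (7.06%, against 2.23% of all probes) and 4 with an offset of 50 (4.71%, against 2.02%). Median scaling gave 4 (4.71%, against 5.8%) and no scaling 19 (22.4%, against 15.3%). With no filter it was 8 (8.42%, against 1.96%), and with detection p below 0.01 on all 6 arrays 5 (7.14%, against 2.83%). With 1 probe per gene it was 2 (3.23%, against 2.41%). At an adjusted p below 0.10 it was 5, where 3.2% of all probes were lower and 1.47% higher. A variance trend and robust prior gave 9 (10.6%, against 1.22%). The trend alone, which was chosen after seeing the data, gave 10 (11.8%, against 1.4%). The count was 0 with cyclic loess (1.38% of all probes passed), array weights (1.07% and 1.09%), the replicate block (0%) and the authors' table (2.45%). It was also 0 with the robust prior alone (1.79%), a setting likewise chosen after seeing the data. Leaving out 1 embryo gave 0 to 2. The count was 2 without KO A (2.35%, against 3.27% of all probes) and 2 without KO B (2.35%, against 3.07%). Without KO C it was 1 (1.18%, against 3.12%), and without WT A, B or C it was 0, where 0% of all probes passed. The call without KO C (Rpl39l) and 1 of those without KO B (Rpl7l1) were higher in KO, and all other member calls listed here were lower. Of all probes, 429 were called, and 1209 with median scaling, 3190 with none, 889 with no filter, 225 with the stricter detection, 255 with the trend and robust prior, 223 and 228 with array weights, and 0 with the replicate block. Leaving out 1 embryo gave 0 (without WT A, B or C) to 682 (without KO A), with 640 without KO B and 651 without KO C. Same-letter embryos did not deviate together (correlations -0.020, -0.0073 and 0.00019), so the letters were not taken as pairs. The median of the members, -0.55, was -0.43 without background correction, -0.50 with an offset of 50, -0.34 with median scaling, -1.04 with none, -0.48 with no filter, -0.46 with stricter detection, with probes detected on all 6 arrays and with the authors' table. Leaving out 1 embryo gave -0.57 (without WT A) to -0.51 (without KO B). For the large subunit it was -0.39 without background correction, with stricter detection and with probes detected on all arrays, -0.34 with median scaling, -1.01 with none, -0.40 in the authors' table and -0.55 without paralogs. For the small subunit it was -0.49 without background correction, -0.50 with an offset of 50, -0.29 with median scaling, -1.04 with none, -0.49 with no filter and -0.48 in the authors' table. Of the 85 members, 73 lay below 0 as reported and 59 under median scaling, so more signs turned than are listed here. Single signs were followed only for the probes picked by the fixed naming criteria above, which include Fgfr2, and not for every member. Among these, signs turned as follows, and the cause was not tested. Under median scaling they were Rpl23 (0.68), Rpl27a (-0.021 and 0.33), Rpl38 (-0.045), Rpl7l1 (-0.45), Rplp1 (0.029), Rps14 (0.12) and Rps24 (0.22). With no scaling they were Fgfr2 (-0.32 and -0.073), Rpl13a (-0.25), Rpl27a (-0.57), Rpl38 (-0.52), Rpl7l1 (-0.91), Rps20 (-0.060) and Rps24 (-0.21). With cyclic loess they were Fgfr2 (-0.00648), Rpl21 (0.17) and Rps24 (0.029). Without background correction they were Rpl21 (0.095) and Rps24 (0.033), with an offset of 50 Rpl21 (0.0032), and in the authors' table Rpl23 (0.19). Leaving out 1 embryo turned 5 of the probes followed. The ranges were -0.13 to 0.39 for Rpl13a, -1.30 to 0.74 for Rpl21, -0.12 to 1.06 for Rpl27a, -0.075 to 0.48 for Rpl7l1 and -0.94 to 0.95 for Rps24.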
